A study of Mus musculus with 12 samples.

Results

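The livers of mice given an insulin fusion protein were compared with the livers of mice given insulin glargine or saline. Of the 12 arrays of the series, 6 were from mice that received a fusion protein (3 Albulin, insulin fused to albumin, and 3 Insulin-Apo, insulin joined to apolipoprotein A-I, the main protein of high density lipoprotein) and 6 were from mice that received neither (3 insulin glargine, a long-acting insulin analogue without a carrier protein, and 3 saline). Each protein was given under the skin to wild type C57BL/6 mice at 55 nmol/kg, and the liver was taken 6 h later from mice that were 6 weeks old according to the labels, while the methods give another age for purchased mice. No transgene, induced mutation or diabetes model is named for any group. Expression was read on Affymetrix Mouse Gene 1.0 ST arrays. The values are on the log2 scale, so that a difference of 1 is a doubling, and each probe set reads 1 transcript cluster. The groups were weighted equally: the mean of Albulin and Insulin-Apo was set against the mean of insulin glargine and saline in a limma fit of all 12 arrays. The genes described are mainly those for which all 6 fusion protein arrays lay on the same side of all 6 other arrays, which was the case for 737 of 26027 probe sets with a signal.

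Both fusion proteins were made in E. coli and came from the same supplier, insulin glargine was a commercial preparation and saline held no protein, so the origin of the protein and the fusion cannot be told apart in this design. The sources used here do not say that each array holds RNA of a separate mouse, and p values here speak only of array-to-array spread, which may be technical. The time of day of the collections is not given. The hepatocyte markers Alb (14.79 to 14.86 on all 12 arrays) and Apoa1 (14.70 to 14.83) were near the top of the scale, which fits liver. The median of an array was 7.70 to 7.77. Insulin glargine replicate 3 stood apart, with correlations of 0.977 to 0.987 with the other 11 arrays, among which the lowest correlation was 0.985. Without it, 939 probe sets did not overlap between the sides. All 737 found with it were among them by necessity, since leaving out an array cannot create overlap. In whole liver, fewer cells of a type and less RNA per cell cannot be told apart.

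Insulin acts on hepatocytes through its receptor and the AKT kinase, restraining glucose output and promoting lipid synthesis. The liver also answers inflammatory cytokines: interleukin-6 type cytokines signal through STAT3, and interleukin-1 and tumour necrosis factor through NF-kB, and together with C/EBP factors they drive the acute phase response, in which hepatocytes secrete serum amyloid A, orosomucoids, fibrinogen and other plasma proteins. Many liver genes also follow the circadian clock, an oscillator in which CLOCK and BMAL1 act through E-boxes on the period and cryptochrome genes.

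After the fusion proteins, 574 probe sets were higher and 342 were lower than after insulin glargine or saline, and the acute phase genes Saa1 and Saa2 led the higher ones by a wide margin. A call means a B statistic, the log odds of a difference in limma, above 0. In this pooled contrast the called probe sets had adjusted p values of at most 0.0124 (Benjamini-Hochberg over all probe sets tested). Calls in other contrasts can have larger ones. Calls covered 2.21% (higher) and 1.31% (lower) of the probe sets. All 6 fusion protein arrays lay above all 6 others for 465 probe sets (1.79%) and below them for 272 (1.05%). Of these, 321 and 147 were also called, which is 1.23% and 0.565% of all probe sets, and 253 called higher and 195 called lower had overlapping arrays. The rule and the contrast use the same values, so these counts are a description. The median difference was 0.47 for the 465 higher probe sets and -0.33 for the 272 lower ones, and the sides were mostly close: the gap between the nearest arrays was under 0.05 for 180 and 141 of them, and at least 0.5 for 24 and 7. At the edge of the rule on the higher side, Ccl2 and Fth1 lay just inside with gaps of 0.000878 and 0.00115, and Cd44 and Rab7b just outside with overlaps of -0.000343 and -0.0005. A stricter count asked each fusion protein to be called against each other group, and 51 probe sets were higher (0.196%) and 10 lower (0.0384%) in all 4 comparisons. That total fell to 40 without Albulin replicate 2 or saline replicate 2.

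The serum amyloid A genes Saa1 and Saa2 encode apolipoproteins that the liver secretes in large amounts in the acute phase and that bind high density lipoprotein. Saa1 was at 12.18, 12.37 and 11.00 after Albulin and at 11.82, 12.42 and 10.65 after Insulin-Apo, against 5.94, 6.67 and 6.67 after insulin glargine and 5.98, 6.49 and 6.43 after saline. Every fusion protein array was at least 3.98 above every other array. The difference was 5.38 on the log2 scale (SE 0.30, adjusted p = 1.68e-06). The insulin glargine and saline values were below those of Ins2, an insulin gene of the pancreas (6.90 to 7.24 on all 12 arrays), so they are not shown to be above background and the difference may understate the change. Saa2 was at 13.72, 13.90 and 13.04 after Albulin and at 13.51, 13.94 and 12.80 after Insulin-Apo, against 8.30, 8.60 and 8.39 after insulin glargine and 8.16, 8.49 and 8.73 after saline. The gap was 4.07 and the difference 5.04 (SE 0.19, adjusted p = 6.3e-08), or 32.9-fold. For neither gene was insulin glargine called apart from saline, with differences of 0.13 (95% interval -0.79 to 1.04) for Saa1 and -0.03 (-0.61 to 0.55) for Saa2. Albulin and Insulin-Apo differed by 0.22 (-0.69 to 1.13) for Saa1 and by 0.14 (-0.45 to 0.72) for Saa2. Saa1 and Saa2 are near-identical copies, and how far their probe sets can tell the transcripts apart is not given in the sources used here.

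**Figure D1:**
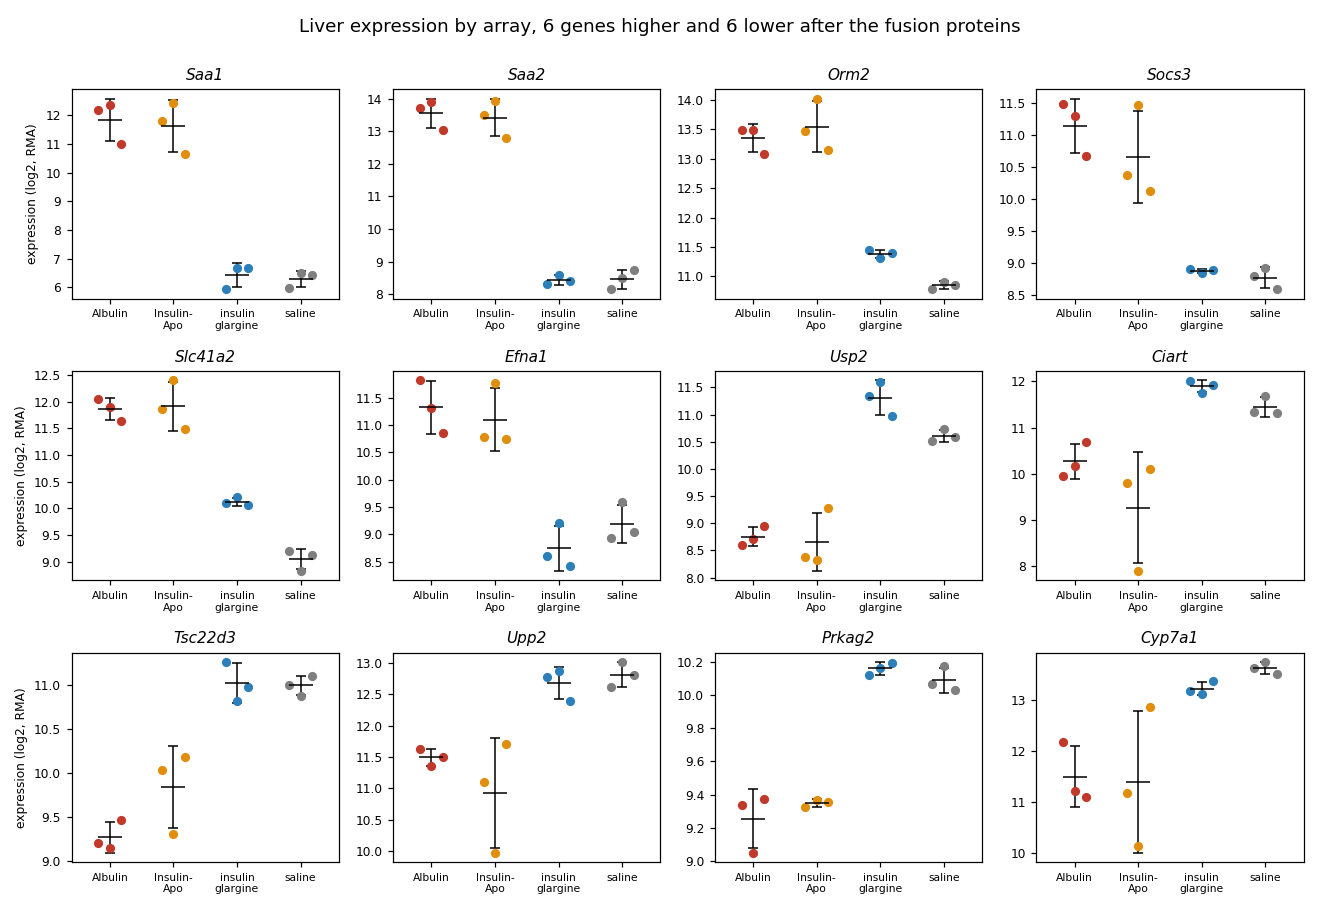
Expression by array for 12 genes, on the log2 scale, with each point an array, the long line the mean and the bar the SD of the 3 arrays of a group. In Saa1 and Saa2 the fusion protein arrays sit at 10.65 or above and the others at 8.73 or below, and in the lower genes, such as Prkag2, the order is turned round.

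The upstream sequences of 5 genes are shown: Saa1, Saa2, Orm2 and Steap4 are acute phase genes among the 12 largest rises, and Ciart is a clock gene among the 12 largest falls. The windows are from RefSeq (GRCm38.p6) and hold the 250 bases before the start site. Capitals mark matches to the C/EBP motif TTGCNNAA, the STAT motif TTCCNNGAA, the NF-kB motif (GGG, any 2 bases, then TTTCC) or the E-box CACGTG, read on both strands. The NF-kB and STAT motifs share the letters TTCC and can overlap. The Saa1 window is chr7:46742981-46743230 on the minus strand and that of Saa2 is chr7:46751583-46751832 on the plus strand, so the genes point away from each other. Orm2 (chr4:63362199-63362448) and Steap4 (chr5:7960222-7960471) are on the plus strand and Ciart (chr3:95882229-95882478) on the minus strand.
Saa1: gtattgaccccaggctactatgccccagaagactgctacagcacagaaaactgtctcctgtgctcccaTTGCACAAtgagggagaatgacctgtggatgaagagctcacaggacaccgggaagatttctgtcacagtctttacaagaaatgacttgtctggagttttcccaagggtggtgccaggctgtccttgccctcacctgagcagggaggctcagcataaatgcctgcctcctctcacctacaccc
Saa2: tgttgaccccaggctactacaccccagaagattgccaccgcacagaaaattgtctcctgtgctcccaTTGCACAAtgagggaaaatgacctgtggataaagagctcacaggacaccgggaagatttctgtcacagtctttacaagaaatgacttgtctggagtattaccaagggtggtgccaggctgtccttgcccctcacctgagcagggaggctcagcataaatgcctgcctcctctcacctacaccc
Orm2: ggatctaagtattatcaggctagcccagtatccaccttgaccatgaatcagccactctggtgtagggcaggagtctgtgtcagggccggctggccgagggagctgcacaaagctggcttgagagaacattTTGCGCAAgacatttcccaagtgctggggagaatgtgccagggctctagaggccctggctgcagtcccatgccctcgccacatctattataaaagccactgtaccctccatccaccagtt
Steap4: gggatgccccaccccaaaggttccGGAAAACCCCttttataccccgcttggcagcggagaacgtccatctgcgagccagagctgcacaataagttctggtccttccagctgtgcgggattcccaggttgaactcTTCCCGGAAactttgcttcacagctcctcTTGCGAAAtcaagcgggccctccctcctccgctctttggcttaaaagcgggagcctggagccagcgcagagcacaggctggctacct
Ciart: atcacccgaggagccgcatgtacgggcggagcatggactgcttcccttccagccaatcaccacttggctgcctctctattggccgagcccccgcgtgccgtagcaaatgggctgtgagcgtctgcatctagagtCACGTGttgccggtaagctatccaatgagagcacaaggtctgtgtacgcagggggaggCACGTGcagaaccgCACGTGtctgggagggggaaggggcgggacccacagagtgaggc

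The aligned Saa1 and Saa2 windows were identical in 238 of 251 columns (94.8%), and the same C/EBP match TTGCACAA began 182 bases before the start in Saa1 and 183 bases before it in Saa2. Orm2 had a C/EBP match, TTGCGCAA, at 120 bases. Steap4 held matches to 3 motifs, at 226 (NF-kB), 116 (STAT) and 87 bases (C/EBP), and Ciart held 3 E-boxes at 116, 58 and 44 bases. In windows of 300 bases that also take in 50 bases after the start, 9 of the 15 acute phase genes without overlap and with a window had a C/EBP match (60%), against 11% of 14812 genes. A STAT match stood in 5 of the 15 (33.3%, against 5.44%) and an NF-kB match in 2 (13.3%, against 1.87%). Over all 315 higher genes with a window, the shares were 14.3% for C/EBP, 8.25% for STAT and 3.17% for NF-kB. An E-box stood in 2 of the 5 lower clock genes without overlap and with a window (40%, against 9.8% of genes), Ciart and Per1, and Usp2, Noct and Cry2 held none. These are counts of letters, not of bound sites. The acute phase list holds genes of a response that these factors drive, so a high share could hold whatever the arrays show. List members with overlap were not counted.

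The acute phase list had 26 measured genes, of which 19 were called higher and none was called lower, against 2.21% and 1.31% of all probe sets. The 6 fusion protein arrays lay above the 6 others for 18 of them. The median difference over the list was 0.44, against -0.01 over all probe sets. The list was written with earlier results of these data known, so its count is not independent evidence. Orm2, an orosomucoid that carries small molecules in plasma, was at 13.49, 13.49 and 13.08 after Albulin and at 13.47, 14.03 and 13.16 after Insulin-Apo, against 11.44, 11.31 and 11.40 after insulin glargine and 10.78, 10.91 and 10.85 after saline. The difference was 2.34 (SE 0.12, adjusted p = 1.39e-06), 5.05-fold, with a gap of 1.64. Insulin glargine arrays were above the saline arrays for Orm2, but that difference of 0.54 was not called. Steap4, a metalloreductase induced by inflammatory cytokines, was at 13.12, 12.93 and 12.40 after Albulin and at 12.78, 13.20 and 12.38 after Insulin-Apo, against 11.02, 11.37 and 12.26 after insulin glargine and 10.78, 10.71 and 10.90 after saline. It was higher by 1.63 (SE 0.20, adjusted p = 0.000419), and insulin glargine replicate 3 alone came near the fusion protein arrays. Without that array the difference was 1.81.

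Smaller rises ran through the secreted acute phase proteins. Apcs, the serum amyloid P component, was higher by 1.21, and Lcn2, the siderophore-binding lipocalin-2, by 1.13, although Lcn2 arrays overlapped. Lrg1 was higher by 0.70, the protease inhibitor Serpina3n by 0.52 and Itih4, of the inter-alpha-trypsin inhibitor heavy chains, by 0.42. The 3 fibrinogen chains were higher without overlap, by 0.36 for Fga, 0.29 for Fgg and 0.27 for Fgb. Their probe sets read 14.11 to 14.72, near the top of the scale, and whether differences are compressed there was not tested. A dimmer Fga probe set gave a larger difference, 1.69. Saa4, the constitutive member of the serum amyloid A family, was higher by 1.19, and there insulin glargine was called lower than saline, by 0.93. Saa3, which macrophages also make in the mouse, behaved differently: it was at 8.88, 9.06 and 9.12 after Albulin and at 10.03, 12.32 and 8.96 after Insulin-Apo, against 8.13, 8.77 and 8.24 after insulin glargine and 8.52, 8.44 and 8.75 after saline. The sides did not overlap, but Insulin-Apo replicate 2 stood far above the rest and the difference of 1.25 was not called (adjusted p = 0.097), although it was without Insulin-Apo replicate 3 (1.62). Without Insulin-Apo replicate 2 it was 0.78 and not called. Crp (0.26), Hamp (0.21), Cp (0.10) and Mt2 (0.18) were not called. Of the 26 genes, 9 were called in all 4 comparisons: Saa1, Saa2, Orm2, Apcs, Lrg1, Serpina3n, Orm1, Itih4 and Fga.

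Some genes that receive or restrain cytokine signals were also higher after the fusion proteins, while others were lower or not called. In a list of 27 measured cytokine and NF-kB feedback genes, 10 were called higher and 2 lower (2.21% and 1.31% of all probe sets), 8 lay without overlap above and 1 below (1.79% and 1.05% of all probe sets), and the list median was 0.08. Socs3, the inhibitor of STAT3 signalling that STAT3 itself induces, was at 11.48, 11.30 and 10.67 after Albulin and at 10.38, 11.47 and 10.12 after Insulin-Apo, against 8.90, 8.85 and 8.89 after insulin glargine and 8.80, 8.92 and 8.59 after saline. It was higher by 2.08 (SE 0.20, adjusted p = 7.54e-05), 4.23-fold, and the lowest fusion protein array was 1.21 above the highest other array. Stat3 itself was higher by 0.68 and the oncostatin M receptor gene Osmr by 0.70. Junb, an AP-1 subunit, was higher by 0.91, Bcl3, an atypical IkB protein, by 1.26 and Myd88, the adaptor of Toll-like and interleukin-1 receptors, by 0.87. Irak3, which damps that pathway, was higher by 0.63. In the other direction Cebpd (-0.51) and Cd14 (-0.77) were called, and 1 of them was lost when Albulin replicate 2 or 3 or any saline array was left out. Cd14, the lipopolysaccharide co-receptor, was at 8.56, 8.48 and 8.25 after Albulin and at 8.71, 9.03 and 8.43 after Insulin-Apo, against 10.69, 10.96 and 10.55 after insulin glargine and 7.93, 7.86 and 8.09 after saline. All fusion protein arrays lay above the saline arrays and below the insulin glargine arrays, and insulin glargine was above saline by 2.77. The Cebpd means were 8.57 after Albulin and 8.02 after Insulin-Apo, against 9.09 after insulin glargine and 8.52 after saline. The gene that lay below without overlap was Il6ra, the interleukin-6 receptor gene, whose difference of -0.46 was not called. The NF-kB feedback genes Nfkbia (-0.35), Tnfaip3 (-0.07), Nfkbiz (0.02) and Nfkb2 (-0.08) were not called, nor was the cytokine gene Il1b (0.54), while Tnf was called higher by 0.40.

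Among 18 chemokine genes, 4 were called higher and none lower, against 2.21% and 1.31% of all probe sets. Without overlap above the other arrays lay 4, against 1.79% of all probe sets, and the list median was 0.21. Cxcl1, a neutrophil attractant, was at 11.35, 11.24 and 10.33 after Albulin and at 9.28, 10.30 and 9.56 after Insulin-Apo, against 8.57, 8.57 and 8.61 after insulin glargine and 8.43, 8.56 and 8.31 after saline. It was higher by 1.83 (SE 0.18, adjusted p = 9.56e-05). Cxcl1 was also called higher after Albulin than after Insulin-Apo, though with an adjusted p of 0.141 in limma. Cxcl13, a B cell attractant, was at 11.79, 12.18 and 12.08 after Albulin and at 12.96, 12.98 and 12.06 after Insulin-Apo, against 10.33, 10.79 and 9.09 after insulin glargine and 10.47, 10.30 and 10.65 after saline. The difference was 2.07 (SE 0.25, adjusted p = 0.000337), or 1.82 without insulin glargine replicate 3, the lowest array. Ccl3, made mainly by myeloid cells, was higher by 1.39, and Cxcl16, which was not free of overlap, by 0.47. Ccl2, the monocyte attractant, was free of overlap by a gap of 0.000878 and was not called (0.38). Cxcl2 (-0.18), Cxcl10 (0.19) and Cxcl5 (0.01) were not called. In the interferon response list, 2 of 17 genes were called higher (Irf1 by 0.75 and Mx2 by 0.39), none was called lower, 1 (Irf9) lay without overlap, and the median was 0.17. Neither call was a clear rise over both other groups. Mx2 was at 7.87, 7.79 and 7.68 after Insulin-Apo, which overlapped insulin glargine, where replicate 3 was at 8.03. For Irf1, Insulin-Apo replicate 1 (9.197) lay below saline replicate 2 (9.329), and every insulin glargine array lay below every saline array.

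Several of the largest rises lay outside the immune lists. Slc41a2, a magnesium transporter, was at 12.05, 11.90 and 11.64 after Albulin and at 11.86, 12.40 and 11.48 after Insulin-Apo, against 10.10, 10.20 and 10.05 after insulin glargine and 9.20, 8.83 and 9.12 after saline. It was higher by 2.31 (SE 0.13, adjusted p = 2.17e-06), and insulin glargine arrays also lay above saline arrays, by 1.07 (adjusted p = 0.0031), in the same direction. Slc41a2 was the only higher probe set without overlap for which insulin glargine was called to the same side of saline. Efna1, which encodes the Eph receptor ligand ephrin-A1, was at 11.82, 11.31 and 10.85 after Albulin and at 10.78, 11.77 and 10.75 after Insulin-Apo, against 8.61, 9.21 and 8.42 after insulin glargine and 8.94, 9.60 and 9.04 after saline. The difference was 2.25 (SE 0.22, adjusted p = 8.21e-05) with a gap of 1.16. B3galt1, a galactosyltransferase, was higher by 2.01, Dnajc12, a J-domain co-chaperone of the aromatic amino acid hydroxylases, by 1.82 and Acpp, an acid phosphatase, by 1.77. For Acpp insulin glargine was called lower than saline, by 0.93. Among the rises with the widest gaps were Chac1, a glutathione-degrading enzyme (1.43), Gas6, the ligand of the TYRO3, AXL and MERTK receptors (1.24), Tmem39a, a membrane protein of the endoplasmic reticulum (1.04), Creb3l2, a membrane-bound transcription factor of that compartment (1.01), and Snx10, a sorting nexin (0.96). All 5 were called in all 4 comparisons, and the Snx10 arrays stood at 10.12 to 10.43 after the fusion proteins and at 9.08 to 9.50 after insulin glargine or saline.

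Genes of protein folding in the endoplasmic reticulum moved less evenly. For the lists in this paragraph, the shares of all probe sets were 2.21% called higher, 1.31% called lower, 1.79% without overlap above and 1.05% below. Of 22 unfolded protein response genes, 2 were called higher, Dnajb9 (1.07), an inhibitor of IRE1, and Manf (0.54), none was called lower, 1 (Dnajb9) lay without overlap, and the median was 0.28. At an unadjusted p under 0.05 the count was 17 of 22. The share of all probe sets at that level is not given here, for this list or those below. Such counts therefore cannot be set against a background. The count of limma calls moved with single insulin glargine arrays: 7 were called without insulin glargine replicate 2 and 5 without replicate 3. In the absence of replicate 2, 5 lay without overlap. The list was also unequal between the fusion proteins, with a median of -0.29 for Albulin minus Insulin-Apo, and that difference was called for Sdf2l1 (-1.23, adjusted p = 0.0969) and Derl3 (-0.999, adjusted p = 0.122), against 0.158% of all probe sets called lower. In the ATF4 response list of 15 genes, Chac1 was called higher, Cth (-0.48) and Ddit4 (-1.22) were called lower, 1 lay without overlap above and 1 below, and the median was 0.03. Among 19 immediate early genes Junb alone was called, and among 18 genes of iron and metal handling 4 were called higher: Slc41a2, the manganese exporter Slc30a10 (0.55), the zinc and iron importer Slc39a14 (0.54) and the metallothionein Mt1 (0.47). For each of these 4, insulin glargine was also called higher than saline, against 2.24% of all probe sets. The heat shock list had none of 11 called by limma and 1 at an unadjusted p under 0.05.

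**Figure D2:**
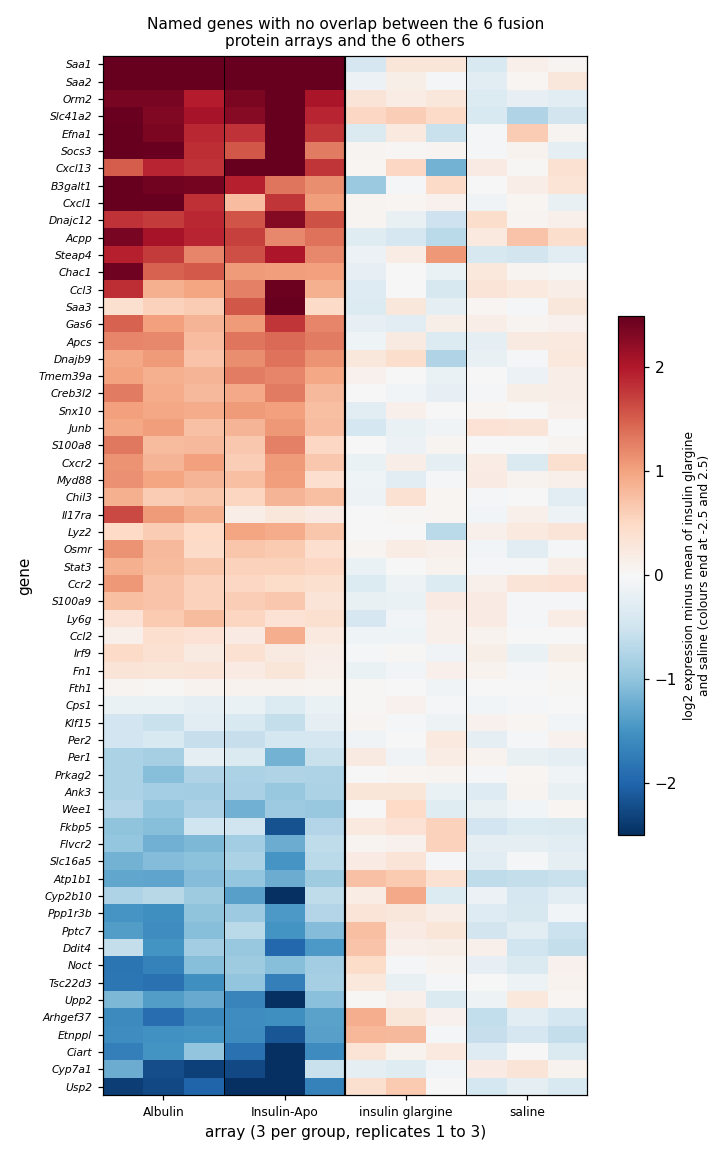
Expression by array of the 60 named genes without overlap between the sides, as the log2 difference from the mean of insulin glargine and saline, with genes down the page by size of the difference and arrays across in groups of 3. Red marks higher and blue lower values, and the colour scale ends at -2.5 and 2.5, which Saa1 and Saa2 exceed on all fusion protein arrays.

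Among the genes that were lower after the fusion proteins, several were clock genes. Usp2, a deubiquitinase with a strong daily rhythm in liver, was at 8.60, 8.71 and 8.95 after Albulin and at 8.38, 8.32 and 9.27 after Insulin-Apo, against 11.35, 11.61 and 10.97 after insulin glargine and 10.52, 10.73 and 10.58 after saline. It had the widest gap of the lower genes, 1.24, and the difference was -2.25 (SE 0.16, adjusted p = 9.73e-06), 4.77-fold. Ciart, a repressor of the clock whose upstream window with 3 E-boxes is shown above, was at 9.95, 10.17 and 10.68 after Albulin and at 9.80, 7.90 and 10.10 after Insulin-Apo, against 12.01, 11.76 and 11.92 after insulin glargine and 11.34, 11.69 and 11.31 after saline. The difference was -1.90 (SE 0.30, adjusted p = 0.00197), with Insulin-Apo replicate 2 far below the others. Noct, the rhythmic phosphatase nocturnin, had a difference of -1.23, Wee1, a clock-controlled kinase that delays mitosis, of -0.93, Per2 of -0.48 and Cry2 of -0.45. Per1 arrays did not overlap, but its difference of -0.66 was not called (adjusted p = 0.0127, B just under 0), though it was called without Albulin replicate 3 (-0.76) or Insulin-Apo replicate 1 (-0.75). Of 20 measured clock genes, 7 were called lower and 2 higher, against 1.31% and 2.21% of all probe sets, 7 lay without overlap below and none above, and the median was -0.30.

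The insulin glargine and saline arrays lay far apart for other clock genes, which the pooled difference does not show. Insulin glargine was called lower than saline for Dbp (-2.44), Nr1d1 (-1.63), Per3 (-1.55) and Tef (-0.69), and higher for Arntl, which encodes BMAL1 (1.97), Cry1 (1.47), Nfil3 (1.43) and Clock (0.49). Dbp, an output transcription factor of the clock, was at 10.27, 10.37 and 10.10 after Albulin and at 9.57, 10.53 and 10.18 after Insulin-Apo, against 8.80, 8.90 and 8.64 after insulin glargine and 11.03, 11.47 and 11.16 after saline. The fusion protein arrays lay between the groups pooled against them, and the pooled difference was 0.17. Nr1d1, which encodes the repressor REV-ERB alpha, was called higher (1.05) in the pooled contrast, with insulin glargine on the far side of saline. Cry1 was called lower (-0.67). For Cry1 the means were 7.99 after Albulin and 7.87 after Insulin-Apo, against 9.34 after insulin glargine and 7.87 after saline, so that insulin glargine alone stood apart. The sources give no time of day, so for clock genes the treatment and the time of collection cannot be told apart.

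**Figure D3:**
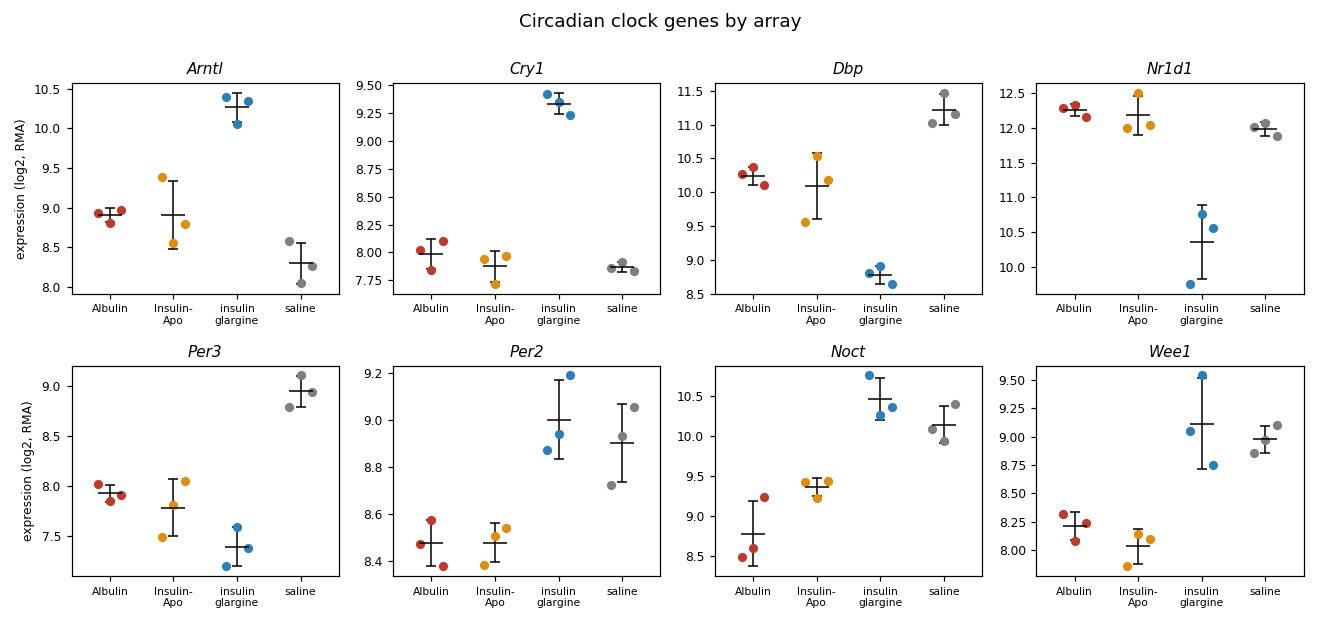
Expression by array of 8 clock genes on the log2 scale, with each point an array, the long line the mean and the bar the SD of 3 arrays. In Per2, Noct and Wee1 the fusion protein arrays lie below all others, while in Arntl, Cry1, Dbp, Nr1d1 and Per3 insulin glargine and saline stand apart from each other, by -2.44 in Dbp.

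Cyp7a1, the rate-limiting enzyme of bile acid synthesis, was among the largest falls. It was at 12.19, 11.21 and 11.09 after Albulin and at 11.18, 10.12 and 12.88 after Insulin-Apo, against 13.18, 13.13 and 13.37 after insulin glargine and 13.63, 13.75 and 13.52 after saline. The fusion protein arrays were spread widely but all lay below the others, and the difference was -1.99 (SE 0.35, adjusted p = 0.00475), 3.96-fold. Cyp7a1 was called in none of the 4 pairwise comparisons. Insulin glargine minus saline was -0.41, which was not called. In the pooled contrast Cyp7a1 was the only called gene of 15 in the list of bile acid synthesis and transport (median -0.09). Of all probe sets 1.31% were called lower. Cyp8b1 (-0.01), Cyp7b1 (-0.10) and the bile acid receptor gene Nr1h4 (-0.10) were not called. Upp2, a liver uridine phosphorylase, was at 11.63, 11.35 and 11.49 after Albulin and at 11.10, 9.97 and 11.70 after Insulin-Apo, against 12.78, 12.87 and 12.40 after insulin glargine and 12.63, 13.02 and 12.81 after saline, a difference of -1.54 (SE 0.22, adjusted p = 0.00114). Prkag2, a regulatory subunit of the energy sensor AMPK, had little spread: it was at 9.34, 9.05 and 9.38 after Albulin and at 9.32, 9.37 and 9.35 after Insulin-Apo, against 10.12, 10.16 and 10.19 after insulin glargine and 10.06, 10.17 and 10.03 after saline. The difference was -0.82 (SE 0.06, adjusted p = 1.2e-05), and it was called in all 4 comparisons. Ppp1r3b, which brings protein phosphatase 1 to glycogen, was lower (-1.18), as were Ddit4, an inhibitor of mTORC1 (-1.22), Pptc7, a mitochondrial phosphatase (-1.21), Slc16a5, of the monocarboxylate transporter family (-1.04), Flvcr2, of a family of choline and heme transporters (-1.01), and Ank3, the ankyrin-G scaffold (-0.84). Ddit4 was free of overlap by a gap of only 0.00533, and its Albulin minus saline difference of -0.66 was not called.

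The glucocorticoid-induced gene Tsc22d3, which encodes the leucine zipper protein GILZ, was at 9.19, 9.14 and 9.46 after Albulin and at 10.03, 9.30 and 10.18 after Insulin-Apo, against 11.26, 10.81 and 10.98 after insulin glargine and 11.00, 10.88 and 11.10 after saline. All fusion protein arrays were below the others, the difference was -1.45 (SE 0.14, adjusted p = 6.13e-05), and insulin glargine and saline differed by 0.02. In a list of 11 glucocorticoid response genes, Tsc22d3 and Dusp1 (-0.53) were called lower and none higher (1.31% and 2.21% of all probe sets). Dusp1 was at 11.16, 11.12 and 11.28 after Albulin and at 12.07, 12.19 and 11.98 after Insulin-Apo. It was at 12.85, 12.25 and 12.49 after insulin glargine and at 12.10, 11.50 and 11.81 after saline, so Insulin-Apo overlapped saline. Per1, Fkbp5 (-0.999) and Tsc22d3 lay below without overlap (1.05% of all probe sets), and the list median was -0.11. The called count was 1 without Albulin replicate 1 or 2, Insulin-Apo replicate 3, saline replicate 1 or 3, or insulin glargine replicate 1 or 3. Fkbp5 was called without Insulin-Apo replicate 1 (-1.16) or 2 (-0.74). Pck1 (0.09), Tat (-0.11) and the receptor gene Nr3c1 (0.03) were not called. Among 16 genes that insulin represses, Klf15 (-0.42) and Foxo3 (-0.30) were called lower and none higher, against 1.31% and 2.21% of all probe sets. Of the 16, 1 lay below without overlap, against 1.05% of all probe sets, and the median was -0.10. Igfbp1 (-0.12), G6pc (-0.09) and the insulin receptor gene Insr (0.04) were not called.

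For some of the largest falls, insulin glargine lay on the far side of saline. Etnppl, a phospho-lyase of phosphoethanolamine, was at 10.93, 10.96 and 10.97 after Albulin and at 10.90, 10.33 and 11.12 after Insulin-Apo, against 13.31, 13.29 and 12.42 after insulin glargine and 11.89, 12.06 and 11.89 after saline. The pooled difference was -1.60, and insulin glargine was above saline by 1.06 (adjusted p = 0.00879). Atp1b1, the beta-1 subunit of the sodium pump, had a difference of -1.13, with insulin glargine above saline by 1.19 (adjusted p = 6.01e-05), so that the smallest of its 4 pairwise differences was -0.44. Arhgef37 had a pooled difference of -1.59 and insulin glargine above saline by 0.88. Over all tested probe sets, 1259 were called between insulin glargine and saline (4.84%), of which 583 were higher (2.24%) and 676 lower (2.6%) after insulin glargine, and 821 were called without saline replicate 2. Among the probe sets without overlap, that difference was called to the opposite side for 28 of the 465 higher and 24 of the 272 lower, to the same side for 1 of each (Slc41a2 and Marveld1), and not called for 436 and 247. The insulin glargine mean lay beyond the saline mean, away from the fusion proteins, for 73.5% of the higher and 76.5% of the lower ones, against 59.9% and 58.3% of all probe sets with that sign. The median differences of the higher ones were 0.36 (Albulin) and 0.38 (Insulin-Apo) against saline, and 0.50 and 0.51 against insulin glargine. For the lower ones they were -0.29 and -0.28 against saline, and -0.39 and -0.40 against insulin glargine. These comparisons share arrays and are given side by side.

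**Figure D4:**
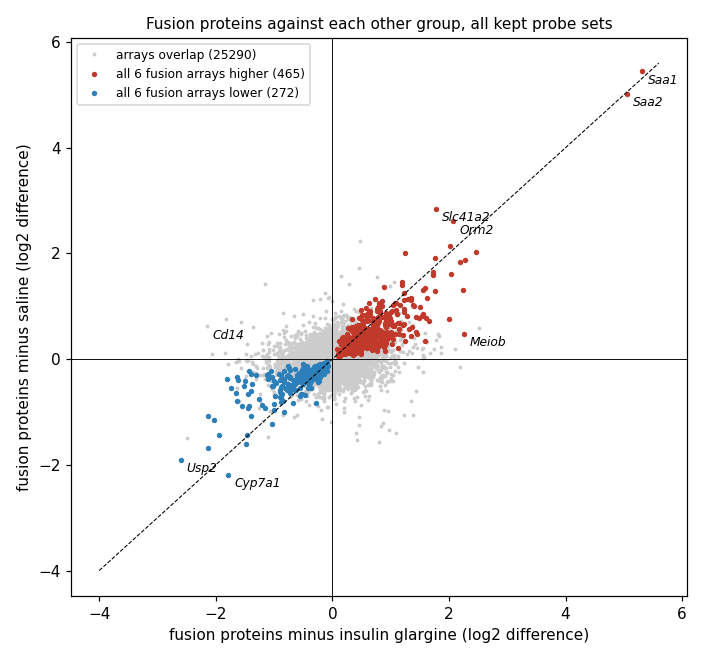
Difference of the fusion proteins from insulin glargine (horizontal axis) and from saline (vertical axis) for 26027 probe sets, in log2 units, with the 465 higher probe sets without overlap in red, the 272 lower in blue and the rest in grey. On the broken line the values are equal: Saa1 and Saa2 lie near it at the upper end, whereas Cd14, 2.77 higher in insulin glargine than in saline, lies well off it.

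Lipid enzymes did not follow the pattern. Of all probe sets, 2.21% were called higher and 1.31% lower, and 1.79% and 1.05% lay without overlap above and below. Fasn, fatty acid synthase, was at 11.58, 10.89 and 11.64 after Albulin and at 9.92, 10.12 and 9.69 after Insulin-Apo, against 10.66, 10.88 and 11.57 after insulin glargine and 10.23, 9.81 and 9.79 after saline. Albulin was high and Insulin-Apo low, so the pooled difference was 0.15 and was not called. Acly, ATP citrate lyase (0.54), was not called, although it was without Albulin replicate 2 (0.63) or insulin glargine replicate 1 (0.61), and Acaca, acetyl-CoA carboxylase, was called higher by 0.66 but its arrays overlapped. Among 18 fatty acid synthesis genes Acaca was called higher, Thrsp (-0.69) and Angptl8 (-1.18) were called lower, none was without overlap, and the median was -0.05. The Thrsp means were 9.97 after Albulin and 8.37 after Insulin-Apo, against 10.65 after insulin glargine and 9.07 after saline, and those of Acaca were 11.45 after Albulin and 10.36 after Insulin-Apo, against 10.42 after insulin glargine and 10.06 after saline. Of 16 cholesterol synthesis genes, Dhcr7 (-0.51) and Lss (-0.57) were called lower, none was called higher or lay without overlap, and the median was 0.00. The Lss means were 8.82 after Albulin and 8.86 after Insulin-Apo, against 9.96 after insulin glargine and 8.86 after saline, so that insulin glargine alone stood apart. None of 16 fatty acid oxidation genes was called by limma or had an unadjusted p under 0.05. Of 13 drug metabolism P450 genes none was called and 3 had an unadjusted p under 0.05, with Cyp2b10 (-1.16) alone without overlap, which was called without Insulin-Apo replicate 3 (-1.38). Of 24 ribosome biogenesis genes, Nop58 (0.53) alone was called and none lay without overlap. After insulin glargine 7 of them were called higher than after saline, against 2.24% of all probe sets.

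Within the pool, Albulin and Insulin-Apo were compared at the same dose and time. They differ in the carrier, albumin or apolipoprotein A-I. The paper describes a short linker and a His-tag for Insulin-Apo, and the sources used here do not give these for Albulin. The carrier and any other difference between the constructs cannot be told apart. Over all probe sets 90 were called between them (0.346%), 49 higher (0.188%) and 41 lower (0.158%) after Albulin. At an adjusted p under 0.05 in limma the count was 11. Leaving out Albulin replicate 1 gave 31 calls, leaving out Albulin replicate 3 gave 42, leaving out Insulin-Apo replicate 2 gave 55 and leaving out insulin glargine replicate 3 gave 166. Among the 737 without overlap, 4 were called, all of them higher after either fusion protein and higher after Albulin than after Insulin-Apo: Cxcl1, Nos1ap, Arhgef26 and Il17ra. Il17ra, an interleukin-17 receptor chain, was at 10.35, 9.78 and 9.61 after Albulin and at 8.89, 8.99 and 8.92 after Insulin-Apo, against 8.71, 8.74 and 8.77 after insulin glargine and 8.65, 8.83 and 8.58 after saline. Its Insulin-Apo arrays were barely above the others. For Orm2 the difference between the fusion proteins was -0.20 (adjusted p = 0.779), for Slc41a2 -0.05 (adjusted p = 0.957) and for Usp2 0.09 (adjusted p = 0.926). A missed call does not show that the fusion proteins act alike.

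Markers of other cell types moved with the acute phase and chemokine genes. Of 11 neutrophil markers, 6 were called higher and none lower (2.21% and 1.31% of all probe sets): S100a8 (0.90), Cxcr2 (0.89), Retnlg (0.77), S100a9 (0.61), Ly6g (0.52) and Csf3r (0.38). S100a8 was at 8.16, 7.64 and 7.66 after Albulin and at 7.53, 8.12 and 7.37 after Insulin-Apo, against 6.86, 6.70 and 6.92 after insulin glargine and 6.86, 6.85 and 6.91 after saline, and 4 of the markers lay without overlap (1.79% of all probe sets). Ly6g was not called when Albulin replicate 2 or 3, Insulin-Apo replicate 1 or 3, or saline replicate 2 was left out. The granule genes Ngp (0.18), Mpo (0.07), Elane (0.00), Camp (-0.04) and Ltf (-0.09) were not called. On the linear scale the summed level of the 11 markers was 1884 to 2326 on the fusion protein arrays and 1400 to 1711 on the others. Of 5 measured monocyte markers, Chil3 (0.73), Ccr2 (0.63) and F13a1 (0.43) were called higher and 3 (Chil3, Ccr2 and Fn1) lay without overlap, and the sum, which includes the hepatocyte-expressed Fn1, was 16461 to 18802 on the fusion protein arrays and 13445 to 16481 on the others. Of 11 Kupffer cell and macrophage markers, Lyz2 (0.71) and Marco (0.63) were called and Clec4f (-0.11), which defines Kupffer cells, was not, and the sums were 18242 to 26011 on the fusion protein arrays and 11946 to 20653 on the others. Without Albulin replicate 1 or 3, Insulin-Apo replicate 1, saline replicate 1 or 3, or insulin glargine replicate 1 or 3, 1 of these markers was called. Kdr (0.41) was called among 9 endothelial markers, with sums of 18337 to 20202 on the fusion protein arrays and 13320 to 19524 on the others, and Cd79b (0.42) among 4 B cell markers, with sums of 596 to 901 on the fusion protein arrays and 496 to 624 on the others. No marker of hepatocytes (8 measured, summed 172591 to 177114 on the fusion protein arrays and 175305 to 179484 on the others, with all values between 13.38 and 14.86 and so near the top of the scale), hepatic stellate cells (9), cholangiocytes (5), T and NK cells (8), erythroid cells (2), platelets (4), pancreas (6) or adipocytes (4) was called by limma. Of these markers the hepatocyte gene Cps1 (-0.21) alone lay without overlap, below the other arrays by a gap of 0.10. At an unadjusted p under 0.05 there were 2 hepatocyte markers, 1 each of hepatic stellate cells, cholangiocytes, T and NK cells, erythroid cells and platelets, and 0 of pancreas and adipocytes. Cftr (5.01 to 5.38) and Adipoq (5.19 to 5.64) read close to 5, the value under which probe sets were taken as dim. On the fusion protein arrays Chil3 read 6.26 to 6.61, Ly6g 6.49 to 6.92 and Ccr2 6.34 to 7.04. None exceeded the top of the range of the pancreatic gene Ins2 (6.90 to 7.24), and F13a1 (6.50 to 7.24) only reached it. These markers are therefore not shown to be above background on either side. S100a8, S100a9, Retnlg and Csf3r read above that range on every fusion protein array. The part of these cells in the acute phase and chemokine differences was not tested.

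**Figure D5:**
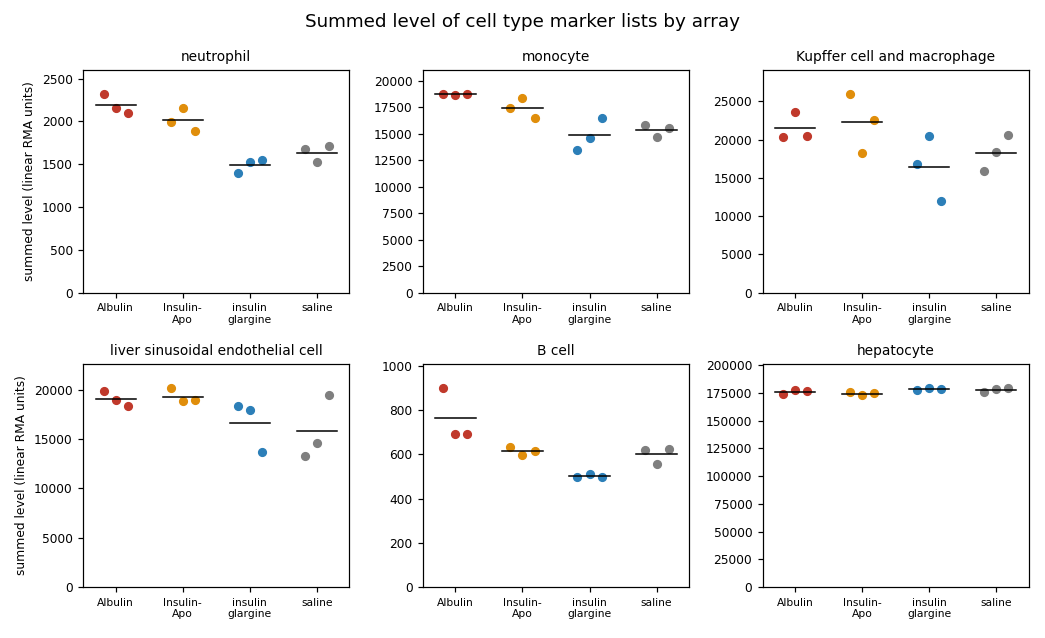
Summed level of 6 marker lists by array, in linear RMA units with axes from 0, each point an array and each line a group mean. The neutrophil sum is 1884 or more on every fusion protein array and 1711 or less on every other array. The monocyte sum is mostly Fn1, which hepatocytes express.

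Further genes without overlap, chosen after their values were seen, widen the description. Higher after the fusion proteins were Tifa, an adaptor upstream of NF-kB (1.53), Pim1, a kinase induced by STAT signalling (1.30), Tirap, an adaptor of Toll-like receptors (0.87), Il13ra1, an interleukin-13 receptor chain (0.84), Serpina10, the inhibitor of coagulation factor Xa (1.25), and Nrp1, a co-receptor for semaphorins and VEGF (1.21). Each was called in the pooled contrast. Lower were the amino acid enzymes Gpt (-0.76), Bhmt (-1.01), Got1 (-0.64) and Prodh (-0.60), the kinase Map2k6 (-1.13), the coactivator Ppargc1b (-0.74) and Pik3r1, the regulatory subunit of PI3 kinase (-0.71). These too were called. For Pik3r1 insulin glargine was called to the opposite side of saline.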

How the data were processed

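Liver RNA of 12 arrays was analysed, 3 each after Albulin, Insulin-Apo, insulin glargine and saline, with groups taken from the labels. The authors corrected the background of the Affymetrix arrays and normalized them by the Robust Multichip Average (RMA) method. The files deposited hold log2 values of 28213 probe sets. Neither the RMA version nor the annotation build is given in the sources used here, and the methods do not describe the insulin glargine arrays. Precision is limited by how many arrays each group has.

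Following the methods, a probe set needed values above 5 on 2 or more arrays of any group, which kept 26027 and left out 2186 as dim. All arrays entered a fit of 4 group means with limma 3.58.1 in R 4.3.3, and the contrast was the mean of Albulin and Insulin-Apo minus the mean of insulin glargine and saline. Calls required B over 0 with a prior proportion of 0.01, and adjusted p values (Benjamini-Hochberg) were taken over all kept probe sets. A probe set had no overlap when all 6 arrays of a side lay beyond all 6 of the other, and the gap is the distance between the nearest arrays. Exact permutation of 6 against 6 arrays cannot give a two-sided p below 0.00216. In the annotation 21640 probe sets had 1 symbol, 1321 had several and 5252 had none, and only those with 1 symbol were named.

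The named genes were, among called probe sets without overlap, the 12 largest rises and falls and the 5 further widest gaps in each direction, then up to 6 members without overlap of each of 18 pathway and 13 cell type lists, and Cyp7a1, Fasn, Acly, Acaca, Insr, Alb, Apoa1 and Ins2. Of several probe sets for a symbol, the brightest was used. The members, lists and rules were chosen with earlier results of these data known, and alternatives for the list counts were added after the values were seen. Alternatives covered the filter, array scaling, array weights, an intensity trend, the replicate number as a block, the definition of a call, either reference group alone and each array left out. The fit was tested on simulated data. Upstream windows came from RefSeq (GRCm38.p6), matched by gene number for 315 of 389 higher and 180 of 233 lower genes. Plots were made in Python 3.11.15 (matplotlib 3.10.9).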

Additional observations from a re-analysis of the deposited data

Results flagged for a closer look

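Among the probe sets whose fusion protein arrays all lay on the same side of the others, 4 also differed between Albulin and Insulin-Apo in limma (B over 0), all of them higher after Albulin. Cxcl1 averaged 10.97 ± 0.56 after Albulin, 9.71 ± 0.53 after Insulin-Apo, 8.58 ± 0.03 after insulin glargine and 8.43 ± 0.12 after saline (SD, n = 3 each), so that Albulin was above Insulin-Apo by 1.26 (adjusted p = 0.141 in limma). Nos1ap, which encodes an adaptor of neuronal nitric oxide synthase, differed by 0.65 (adjusted p = 0.15 in limma). Arhgef26 differed by 0.48 (adjusted p = 0.151 in limma). Il17ra differed by 0.98 (adjusted p = 0.0417 in limma), the only adjusted p of the 4 under 0.05, with 9.91 ± 0.39 after Albulin, 8.93 ± 0.05 after Insulin-Apo, 8.74 ± 0.03 after insulin glargine and 8.69 ± 0.13 after saline (SD, n = 3 each).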

How the results depend on the processing

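The pooled contrast called 916 probe sets. Its count was 1826 when calls were set by an adjusted p under 0.05, 387 when a log2 difference of at least 0.58 was also asked, and 687 to 1068 with an array left out. Against saline alone it called 727 and against insulin glargine alone 1226. Between insulin glargine and saline the count of 1259 became 2848 at an adjusted p under 0.05 and 821 to 1362 with an array left out. Between Albulin and Insulin-Apo the count of 90 became 190 with array quality weights, 11 at an adjusted p under 0.05, 10 with the log2 minimum added and 31 to 166 with an array left out. With arrays centred on the median, 30 of 77 were higher after Albulin, against 49 of 90. The 61 probe sets called in all 4 comparisons became 93 with array quality weights, 110 at an adjusted p under 0.05 and 40 to 83 with an array left out. Without overlap there were 737 probe sets, 131 with a gap of at least 0.2, 31 with one of at least 0.5 and 845 to 982 with an array left out, where fewer arrays make overlap less likely. The cause of the other shifts was not tested.

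Same-numbered arrays of different groups showed no shared deviation (correlations of -0.27 to 0.15 over 18 pairs). Pairs with different numbers gave -0.17 to 0.27 (36 pairs). These correlations cannot show whether same-numbered arrays were collected or processed together. With the replicate block the counts were 824 in the pooled contrast, 1129 between insulin glargine and saline, 86 between the fusion proteins and 60 in all 4 comparisons.

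Over 67 named genes and 22 alternatives each, 1431 values kept direction and call, 8 lost the call (Ly6g, Per2 and Klf15), 32 gained it and 3 changed sign. The last were genes without a call: Alb (0.00726 with repeated quantile normalization) and Ins2 (0.00903 with array quality weights, and between -0.0471 and 0.0258 with an array left out). Of the 67, 49 were called under every alternative. The acute phase count of 19 became 21 when calls were set by an adjusted p under 0.05, and 8 when a log2 difference of at least 0.58 was asked as well. The 3 arrays a group limit the precision.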
